A study of Mus musculus with 16 samples.

Results

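Genes that make and package peptide hormones were followed in the pituitary, 10 in number, and all 10 were present among the 17362 genes listed. They are Pcsk1, Pcsk1n, Cpe, Pam, Chga, Chgb, Scg2, Scg3, Scg5 and Vgf, taken by name from a list that applies no threshold to these data, though the list was drawn up with earlier results of the series known. All 10 passed the filter on low values that 14345 genes passed, a mean of at least 1 over all mice. Pituitaries of 16 female mice were profiled by bulk RNA-seq, 1 library a mouse and 4 mice a group. The mice were 27 weeks old and of a mixed CD-1;129P2 background. Controls were Esr1 fl/fl, carrying the floxed allele without Cre. Mutants, Esr1 Nkx2.1-cre, lacked Esr1, the gene for oestrogen receptor alpha, wherever Nkx2-1 had driven Cre. That includes cells of the arcuate nucleus in the brain. Which cells of the pituitary, if any, carried the deletion was not tested. Each genotype was fed standard chow (SD) or, for the last 17 weeks, a high-fat diet (HFD). The comparisons of the design ask whether the pituitary of the mutants differs on each diet and whether the diet changes it.

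Peptide hormones are made as large precursors that are sorted into dense-core granules, where they are cut and trimmed before release. Prohormone convertase 1/3 (Pcsk1) cuts precursors after pairs of basic residues, and proSAAS (Pcsk1n) is its inhibitor. Carboxypeptidase E (Cpe) then removes the basic residues left at the cut end, and peptidylglycine alpha-amidating monooxygenase (Pam) converts a terminal glycine into an amide. Chromogranins A and B (Chga, Chgb) and secretogranin II (Scg2) are acidic granins that aggregate in the forming granule, and Scg3 holds such aggregates to the granule membrane. The protein 7B2 (Scg5) is the chaperone of the second granule convertase, Pcsk2, and Vgf is a granin-like precursor of several secreted peptides. In the pituitary, the convertases set which peptides are cut from pro-opiomelanocortin in corticotrophs and in the melanotrophs of the intermediate lobe.

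Of the members, 3 carried the same 8-base element just upstream of their RefSeq start. These stretches are shown because 2 of the 3, Scg2 and Chgb, were among the members that varied most between mice. RefSeq promoter windows (GRCm38.p6, 250 bases before to 50 bases after the start) were matched for 8 of the 10 members, with no entry for Cpe and Vgf. The cAMP response element TGACGTCA, which reads the same on both strands, was in the windows of Pcsk1, Chgb and Scg2. Its first base was 78, 72 and 68 bases before the RefSeq start, respectively. In GENCODE, Chgb starts at 132781278 (+) and Scg2 at 79440120 (−), so their elements lie inside the gene there. Only the element of Pcsk1 lies upstream of the start in both. Capitals mark the element in the 88 bases around it, each printed 5′ to 3′ on the strand of the gene, chr13:75089739-75089826 (+) for Pcsk1, chr2:132781530-132781617 (+) for Chgb and chr1:79440047-79440134 (−) for Scg2.
Pcsk1: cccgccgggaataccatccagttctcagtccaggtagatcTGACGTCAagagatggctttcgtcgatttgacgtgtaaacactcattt
Chgb: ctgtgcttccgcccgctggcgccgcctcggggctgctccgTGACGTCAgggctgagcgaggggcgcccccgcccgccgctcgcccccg
Scg2: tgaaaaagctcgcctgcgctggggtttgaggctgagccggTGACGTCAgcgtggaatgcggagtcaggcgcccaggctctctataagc
Of all 32851 promoter windows of this length, 1.79% held the same 8 letters. The palindromic oestrogen response element was in 0 of the 8 members' windows and in 0.0700% of all windows. A match describes the letters in the window and says nothing of binding.

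Pituitary identity was evident in every library, with Prl, the prolactin gene, giving between 28.8% and 40.6% of the summed values. The sums ranged from 908897 to 1335782 per mouse. The deposited values are a normalised abundance per transcript length, so levels can be compared between genes. By the steps between low values of 1457 genes with 1 transcript, 1 read was worth about 0.0440 to 0.0697 units per kilobase, so a value of 10 in a 2 kb transcript stood for roughly 287 to 455 reads, as an estimate. The 2 libraries that stood apart were P357 (mutant on SD) and P392 (control on HFD). P357 also had the largest sum, 1335782, and 533 genes at 0, against 96 to 310 in the other mice. The corticotroph list (Pomc, Tbx19, Crhr1, Avpr1b, all 4 detected) summed to 1672 in P357 and 3469 in P392, against 11283 to 42094 in the other 14 mice. The sum was almost all Pomc, which melanotrophs also make. Pax7, a melanotroph marker, was 0.13 in P357 and 1.16 in P392 against 4.58 to 13.5 in the others. Of the other corticotroph genes, Crhr1 was 4.11 in P357 and 3.78 in P392 against 2.79 to 6.53. Tbx19 was 13.6 and 21.2 against 19.0 to 52.5, and Avpr1b 0.77 and 1.20 against 1.09 to 3.12. The sum of Avp and Oxt, RNA of the neurons that end in the posterior lobe, was 0.79 and 2.10 against 18.5 to 44.1, and Avp and Rax were listed at 0 in both. Values without these 2 libraries stand beside the main results of the members and of the other genes named. P357 and P392 were set apart by values in these same data, so p-values without them do not allow for that choice. In bulk tissue, fewer cells of a type and less RNA per cell cannot be told apart.

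Esr1 itself, listed as the check of the deletion, was lower in mutants on SD. Whether this level reflects the deletion was not tested. Esr1 values were 10.02 (P357), 22.2, 20.5 and 21.8 in mutants on SD and 40.5, 46.6, 39.4 and 29.0 in controls on SD. The groups did not overlap (log2 fold change −1.09, SE 0.25, adjusted p = 0.0409 from limma). That call was lost when any one of P357, P358, P359, P381, P382, P383, P384, P339, P341 or P387 was left out, with adjusted p up to 0.1196. It was also lost with a covariate for the series of animal numbers (adjusted p = 0.0525 from limma) and with only the mice compared (adjusted p = 0.0636 from limma). On HFD, mutants ranged from 21.5 to 33.4 and controls from 23.6 to 43.4, and the difference did not pass (log2 fold change −0.34, SE 0.25, adjusted p = 0.696 from limma). Averaged over diets, Esr1 was lower in mutants and passed (adjusted p = 0.0280 from limma). The averaged call was lost without any one of P358, P359, P390, P391, P341 or P388, with adjusted p up to 0.0683. Esr1 in P392 was 39.6, among the control values.

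The members covered a wide range of levels, and most were among the abundant transcripts of the gland. In controls on SD, Chgb was highest at 4380 ± 1437 (SD, n = 4) and stood clear of all others. Scg5 followed at 1530 and Scg2 at 1317, and the ranges of these overlapped. Chga (567), Pcsk1n (540) and Cpe (504) formed the next step and overlapped in turn. Scg3 (321) and Pam (242.7) came below, each clear of its neighbours. The convertase Pcsk1, at 39.4 ± 6.1 (SD, n = 4), and Vgf, at 18.7 ± 4.1 (SD, n = 4), were the 2 lowest and did not overlap. Over all 16 mice, 8 of the members had a mean above that of 97.9% or more of the tested genes, while Pcsk1 stood above 82.5% and Vgf above 88.8%. Together the 10 genes gave 0.715% to 1.27% of the summed values in controls on SD, 0.462% to 0.847% in mutants on SD, 0.699% to 0.946% in controls on HFD and 0.758% to 0.908% in mutants on HFD.

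The members also differed in how far they varied between mice. Scg3 was the steadiest, with a range of 279 to 332 over the 16 mice and an SD of 0.06 on the log2 scale. Scg5 came next at 0.11. Cpe, Chga, Pcsk1, Pcsk1n and Pam had SDs between 0.19 and 0.28, Chgb 0.44 and Scg2 0.63. Vgf varied most, with an SD of 1.40 and a 17.4-fold span from 9.48 to 164.7.

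**Figure D1:**
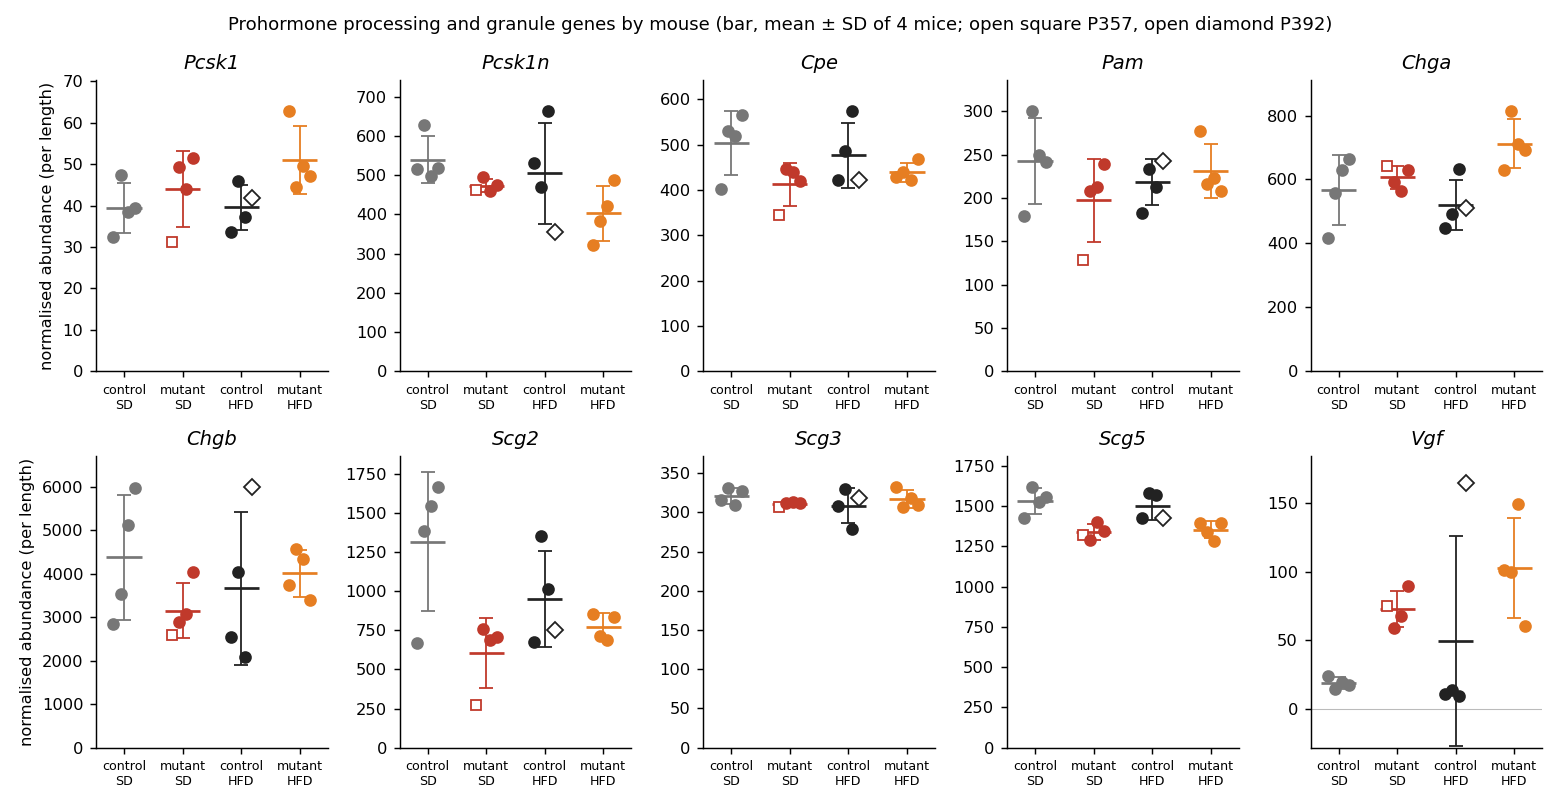
Normalised abundance per length of each member (vertical axes, linear, drawn to include 0) in every mouse of the 4 groups, with the mean and SD of 4 mice; open squares are P357 and open diamonds P392. All Vgf points of mutants lie at 58.8 or higher and those of 7 controls at 24.0 or lower, with P392 at 164.7, and the 8 Scg5 points of mutants all lie below those of controls.

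Vgf, on chromosome 5 (137026392 to 137033351, GRCm38, plus strand), was the member that rose in mutants. On SD its values were 75.3 (P357), 58.8 (P381), 67.9 (P382) and 89.8 (P384) in mutants. The controls on SD gave 24.0 (P356), 14.4 (P358), 19.3 (P359) and 17.2 (P383). Every mutant was above every control. On HFD the mutants had 101.1 (P339), 99.8 (P341), 149.5 (P387) and 60.7 (P388). The controls on HFD had 10.5 (P385), 13.7 (P390), 9.48 (P391) and 164.7 (P392). Of these controls, 3 were the lowest values of the series and P392 was the highest, so the groups overlapped through P392 alone.

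Averaged over both diets, Vgf was 4.09-fold higher in mutants on the log2(value + 0.5) scale (log2 fold change 2.03, SE 0.45, adjusted p = 0.0162 from limma, Benjamini-Hochberg adjusted over all tested genes). It was the 1 member of 10 that passed, in a comparison where 6.54% of all tested genes passed. At an unadjusted p under 0.05 there were 7 of the 10, beside 22.7% of all genes. The call held with each of the 16 mice left out in turn, with adjusted p up to 0.0420, and it did not pass a threshold of 0.01. Without P357 and P392 the log2 fold change was 2.50 (SE 0.18, adjusted p = 1.78e-06 from limma).

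Taken one diet at a time with all mice, the Vgf difference did not pass the adjusted threshold. On SD the log2 fold change was 1.94 (SE 0.63, adjusted p = 0.116 from limma), with an exact permutation p of 0.0286, the smallest that 4 mice against 4 can give. The SE comes from all 16 mice. Without P392, which is not in this comparison, it fell to 0.23 and the adjusted p to 0.000215 from limma. With only the 8 mice compared, the adjusted p was 0.000889 from limma. On HFD the log2 fold change was 2.13 (SE 0.63, adjusted p = 0.256 from limma, exact permutation p = 0.143). Without P392 it was 3.09 (SE 0.25, adjusted p = 9.26e-06 from limma). That fit leaves out the only control that overlapped the mutants, and its p does not allow for this choice.

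Sums of other marker lists are given beside Vgf, and their part in the result was not tested. The endothelial list (Pecam1, Cdh5, Plvap, Emcn, Kdr, all 5 detected) summed to 101 to 123 in controls on SD and to 94.3 to 108 in 3 controls on HFD, with 183 in P392. In mutants the sums were 154 to 206 (SD) and 149 to 164 (HFD). Of its 5 genes, 3 passed in mutants averaged over diets, at log2 fold changes of 0.60 (Pecam1), 0.62 (Cdh5) and 0.43 (Plvap). In the immune list 2 of 5 genes passed, C1qa at 0.92 and Cx3cr1 at 0.73. Its sum was 123 to 226 and 106 to 355.8 in controls on SD and HFD, and 176 to 775 and 196 to 654 in mutants. The highest immune sums were in P384 (775) and P341 (654), and P392 had 355.8. Pituicyte markers (5 of 5 detected, 1 called, Col25a1 at 0.89) summed to 15.8 to 18.8 in controls on SD and 15.2 to 17.1 on HFD. In mutants they summed to 14.6 to 30.4 (SD) and 22.4 to 25.3 (HFD). The lowest pituicyte sum was in P357 (14.6), and P392 had 16.1. The other pituicyte markers did not pass, at −0.37 (Rax), −0.10 (Nkx2-1), 0.003 (Scn7a) and 0.02 (Lhx2). Col25a1 was 13.9 in P357 and 15.3 in P392, where Rax was 0. Vgf was 75.3 in P357 and 164.7 in P392, the libraries where Avp and Oxt summed to 0.79 and 2.10. The part of posterior lobe RNA in the Vgf values was not tested.

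The 3 tested genes whose mean-centred log2 values over the 16 mice were nearest to those of Vgf were Sdcbp2, Lgr6 and Abcg8. Their root mean square differences from Vgf were 0.41, 0.42 and 0.44 on the log2 scale, where Vgf itself varied by 1.36 about its mean. Sdcbp2 was 0.61 to 1.84 in controls on SD, 13.3 in P392 and 1.21 or lower in the other 3 controls on HFD. Mutants had 4.65 to 6.54 (SD) and 4.56 to 14.2 (HFD). Lgr6 was 16.2 in P392 and 1.21 or lower in the other controls on HFD. Abcg8 was 3.06 and 0.246 or lower, respectively. P392 thus lay with or above the mutants in all 4 genes. This is a description of likeness over these mice, found by searching all genes.

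Scg2 had lower values in most mutants on SD, but the difference did not pass. The controls on SD had 672 (P356), 1383 (P358), 1548 (P359) and 1664 (P383). The mutants on SD had 271 (P357), 756 (P381), 687 (P382) and 705 (P384). Of the controls, 3 were above every mutant, and P356 was below 3 of the mutants. The log2 fold change was −1.15 (SE 0.33, unadjusted p = 0.00313 and adjusted p = 0.0786 from limma), with an exact permutation p of 0.114. Without P356 it was −1.44 (adjusted p = 0.0181 from limma), and with a covariate for the series of animal numbers −1.43 (adjusted p = 0.0399 from limma). Without P357 and P392 it was −0.80 (adjusted p = 0.105 from limma). On HFD the controls had 675, 1356, 1012 and 753 and the mutants 856, 715, 686 and 835, with the mutants inside the range of the controls (log2 fold change −0.25, SE 0.33, adjusted p = 0.858 from limma). Averaged over diets the log2 fold change was −0.70 (SE 0.23, adjusted p = 0.0855 from limma), and −0.85 without P356 (adjusted p = 0.0206 from limma).

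Scg5 differed little in size but separated the genotypes. Controls had 1426, 1616, 1524 and 1553 on SD and 1425, 1581, 1567 and 1424 on HFD. Mutants had 1319, 1291, 1402 and 1342 on SD and 1396, 1338, 1284 and 1392 on HFD. All 8 mutants were below all 8 controls, P357 and P392 included, as in 0.432% of all tested genes, and no other member was so separated. The closest values were 1402 in the mutant P382 and 1424 in the control P392, in libraries that summed to 1024839 and 1080959. As a share of its library's sum, P392 lay below the mutants P381, P382, P384, P341, P387 and P388. So the full separation, and that on HFD, rests on the scaling of the deposited values. On the deposited scale, the exact permutation p within each diet was 0.0286, the smallest possible. In limma, whose SE draws on the spread of other genes of similar level, the averaged log2 fold change was −0.17 (SE 0.06, unadjusted p = 0.0146 and adjusted p = 0.115). Without P357 and P392 it was −0.18 (adjusted p = 0.0344 from limma). The separation was noticed after the values were seen. Scg5 lies on chromosome 2 (113776362 to 113829121, GRCm38, minus strand).

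On SD, 3 of the 10 members had groups that did not overlap, Vgf above and Scg5 and Pcsk1n below, where 10.6% of all tested genes had such a separation. On HFD it was 1 of 10, Scg5, against 5.30% of all genes, and without P392 Vgf was also separated. These counts are on the deposited scale. On SD, Pcsk1n was parted only by 496.4 in the mutant P381 and 497.5 in the control P359. As shares of the library sums P381 lay above P359, so that separation also rests on the scaling. By limma 0 of 10 members passed on SD, where 1.84% of all genes passed, and 4 had an unadjusted p under 0.05, as had 19.9% of all genes. On HFD 0 of 10 passed, as did 0% of all genes, and 3 had an unadjusted p under 0.05, as had 10.2% of all genes. Without P357 and P392, 1 member (Vgf) passed on each diet, beside 6.65% of all genes on SD and 7.32% on HFD. The median log2 fold change of the 10 was −0.19 on SD and 0.06 on HFD, beside −0.01 and 0.02 over all tested genes.

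**Figure D2:**
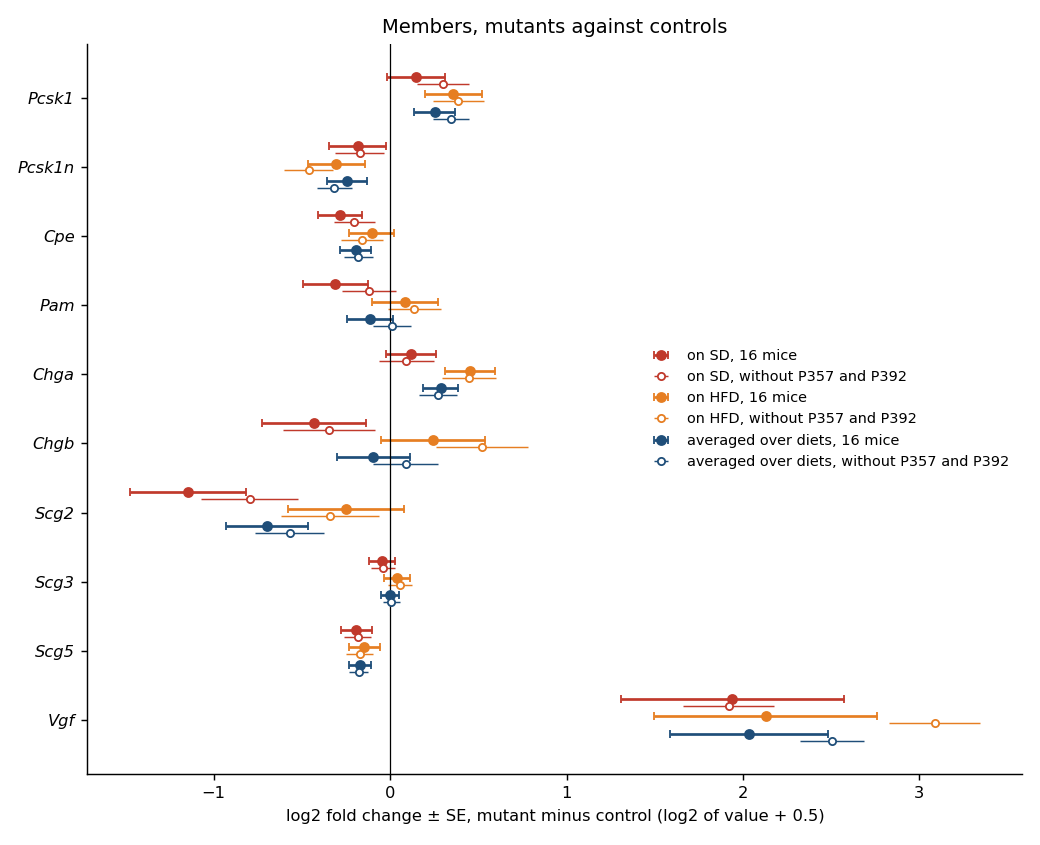
Log2 fold change between mutants and controls of each member (horizontal axis, ± SE from limma) on SD, on HFD and averaged over diets, with all 16 mice (filled) and without P357 and P392 (open). Vgf lies at 1.94, 2.13 and 2.03 with all mice, Scg2 at −1.15, −0.25 and −0.70, and with all mice the other members lie between −0.43 and 0.45.

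The convertase and its inhibitor did not pass with all mice, with estimates on opposite sides of 0. On SD, Pcsk1 was 31.2 to 51.6 in mutants and 32.5 to 47.3 in controls. On HFD it was 44.5 to 62.8 and 33.6 to 45.9. Its averaged log2 fold change was 0.25 (SE 0.12, adjusted p = 0.209 from limma). It passed when P357 was left out (0.33, adjusted p = 0.0497 from limma) and without P357 and P392 (0.34, adjusted p = 0.0337 from limma). Pcsk1n overlaps Eras on the other strand, and since the use of strand is not given their reads may not be told apart. Pcsk1n was 460 to 496 in mutants and 498 to 627 in controls on SD, and 321 to 489 in mutants and 355 to 664 in controls on HFD. Its averaged log2 fold change was −0.24 (SE 0.11, adjusted p = 0.217 from limma). It passed without P392 (−0.32, adjusted p = 0.0404 from limma) and without both libraries (−0.32, adjusted p = 0.0407 from limma). So without the 2 libraries that stood apart, 4 members passed in the averaged comparison, Vgf and Pcsk1 higher and Pcsk1n and Scg5 lower, where 18.5% of all genes then passed.

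The enzymes that trim and amidate did not pass in any comparison. Cpe was 345 to 447 in mutants and 403 to 565 in controls on SD, with P356 the lowest of those controls and P357 the lowest of the mutants (averaged log2 fold change −0.20, SE 0.09, adjusted p = 0.206 from limma). Pam ranged from 128 (P357) to 301 (P358), and its averaged value was −0.11 with all mice and 0.01 without P357 and P392.

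Neither chromogranin, Chga or Chgb, passed in a comparison. Chga was 631, 814, 710 and 692 in mutants on HFD and 449, 494, 632 and 510 in the controls. Of these mutants, 3 were above every control (log2 fold change 0.45, SE 0.14, adjusted p = 0.277 from limma, exact permutation p = 0.0571). Averaged over diets the log2 fold change of Chga was 0.29 (SE 0.10, unadjusted p = 0.0112 and adjusted p = 0.0989 from limma). Chgb ranged widely within the controls, with 2851, 3545, 5137 and 5989 on SD and 2541, 4050, 2094 and 5993 (P392) on HFD. The mutants had 2595, 2893, 3081 and 4050 on SD and 3749, 4576, 4352 and 3390 on HFD, all inside the span of the controls. Its log2 fold change was −0.43 (SE 0.30) on SD and 0.24 (SE 0.30) on HFD, and neither passed. Scg3 stayed within 0.05 of 0 on both diets.

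No member passed a comparison of the diets. Between HFD and SD, 0 of the 10 passed in mutants, in controls or averaged over genotypes, and none had an unadjusted p under 0.05. Over all tested genes 0%, 0% and 0.00697% passed these comparisons, and 5%, 4.13% and 5.11% had an unadjusted p under 0.05, so 0 of 10 is near the share of all genes. In mutants the log2 fold changes of the members ran from −0.25 to 0.45, with Vgf at 0.44 (SE 0.63), Scg2 at 0.45 (SE 0.33) and Chgb at 0.36 (SE 0.30). In controls they ran from −0.44 to 0.25. Vgf was 0.25 there with all mice and −0.71 without P392 (adjusted p = 0.879 from limma without P357 and P392), so the sign rested on 1 mouse. No member passed the test of whether the genotype difference depends on diet, where 0% of all genes passed, and none had an unadjusted p under 0.05, beside 4.2% of all genes. The interaction was largest for Scg2, at 0.90 (SE 0.47, unadjusted p = 0.0719 and adjusted p = 0.924 from limma), and it was 0.46 without P357 and P392. For Vgf it was 0.19 (SE 0.90, adjusted p = 0.981 from limma) with all mice and 1.17 (SE 0.36, adjusted p = 1.00 from limma) without them.

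**Figure D3:**
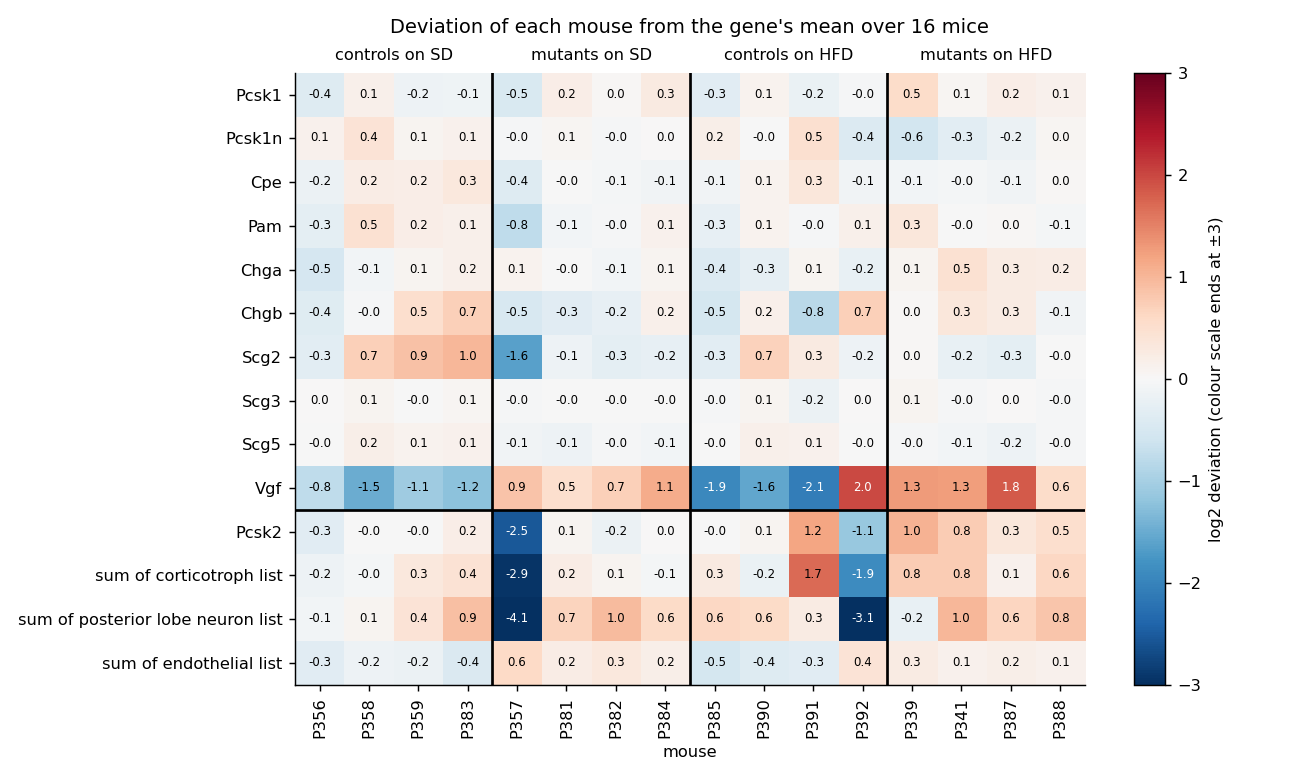
Deviation of each mouse (columns) from the mean over 16 mice on the log2(value + 0.5) scale for the 10 members, Pcsk2 and 3 summed marker lists (rows), with colours ending at ±3. P357 is lowest for Scg2 (271), Pcsk2 (11.0) and the corticotroph (1672) and posterior lobe neuron (0.79) sums. P392 is low in the same sums but highest in Vgf (164.7). The corticotroph sum is almost all Pomc, which melanotrophs also make.

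Pcsk2, the second granule convertase and a melanotroph marker, was lowest in the 2 libraries that stood apart. It was 11.0 in P357 and 30.2 in P392, 151 in P391 and 52.3 to 138 in the others. Pcsk2 in the 4 mutants on HFD (84.4 to 138) lay above all 4 on SD (11.0 to 70.7), with a log2 fold change of 1.31 (SE 0.51, adjusted p = 0.813 from limma) that was 0.68 without P357 and P392. The Pomc-led corticotroph sum was 14151 to 22034 in mutants on HFD and 12310 to 15138 in the mutants on SD other than P357. Furin, the convertase of the constitutive pathway, was 17.0 to 35.1 over all mice, with log2 fold changes of −0.19 on SD and 0.17 on HFD (SE 0.18 each, neither passing).

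Ratios within a library do not move with its overall scale, and 4 were tested in 4 comparisons each, with adjustment over the 16 tests. None passed, and the lowest adjusted p was 0.229 (two-sided exact permutation tests, 4 mice against 4). The ratio of the inhibitor Pcsk1n to Pcsk1 was 13.8 ± 1.4 in controls on SD, 11.1 ± 2.5 in mutants on SD, 13.1 ± 4.5 in controls on HFD and 8.14 ± 2.20 in mutants on HFD (SD, n = 4 each). On SD, 3 mutants had ratios of 9.20 to 10.5, below every control (12.9 to 15.9), and P357 was at 14.8. The ratio of Pcsk2 to Pcsk1 was 0.35 to 1.43 in the SD mutants, below the 1.70 to 2.56 of the HFD mutants (difference 1.09 on the log2 scale, exact permutation p = 0.0286). Without P357 the difference was 0.61 (exact permutation p = 0.0571). The ratio of Scg5 to Pcsk2 was 120 in P357 and 47.1 in P392, 10.4 in P391 and 10.2 to 27.3 in the other mice. The ratio of Chga to Chgb was 0.155 to 0.248 in mutants and 0.111 to 0.157 in controls on SD, with an exact permutation p of 0.0571.

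Of the other convertases and trimming enzymes, 18 of 19 listed were tested, and 1 rose and 2 fell in mutants averaged over diets, beside 6.54% of all genes called (median log2 fold change −0.10, beside 0.00 over all genes). Without P357 and P392, 3 were higher (Pcsk5, Pcsk6 and, named after its value was seen, Ctsb) and 2 lower (Qpct and Pcsk4), beside 18.5% of all genes. Pcsk5, a convertase of broad distribution, was 2.51, 3.84, 3.70 and 4.10 in mutants on SD against 1.21, 0.48, 1.39 and 1.01 in controls. Its averaged log2 fold change was 1.3403 (SE 0.23, adjusted p = 0.00491 from limma) and passed with each mouse left out. P392 had 3.82, and the other controls on HFD 1.13, 1.052 and 0.93. The call of Pcsk5 on SD alone (1.43, adjusted p = 0.0394 from limma) was lost without any one of P357, P358, P359, P381, P382, P383, P384, P339, P341 or P387, with adjusted p up to 0.119, and with the covariate for animal numbers (adjusted p = 0.0583 from limma). Qpct, which closes an N-terminal glutamine into pyroglutamate, was 4.41 to 8.91 in the 8 mutants, 11.0 to 23.4 in 7 controls and 5.95 in P392. Its averaged log2 fold change was −0.92 (SE 0.21, adjusted p = 0.0179 from limma) and passed with each mouse left out. Pcsk4, known as a germ-cell convertase, was at −0.55 (SE 0.15, adjusted p = 0.0356 from limma). It did not pass without any one of P359, P383, P382, P384, P390, P391, P339, P341 or P387, with adjusted p from 0.0599 to 0.0838. Pcsk6 was 0.76 on SD (SE 0.44, adjusted p = 0.342 from limma), with 289 in the control P356 against 82.7 to 89.1 in the other controls on SD. Without P356 it was 1.19 (adjusted p = 0.0781 from limma). Averaged over diets Pcsk6 was at 0.73 (adjusted p = 0.176 from limma), and it passed without P356 (0.94, adjusted p = 0.0348 from limma) and without P357 and P392 (1.02, adjusted p = 0.0275 from limma).

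Of the other granule proteins, 23 of 24 were tested (Scgn was below the filter) and 0 passed in any comparison by limma, with 9 at an unadjusted p under 0.05 averaged over diets, beside 22.7% of all genes. The median log2 fold change was 0.07 averaged over diets. With P357 and P392 left out, 6 were higher and 1 lower in mutants averaged over diets (the latter Rab27a, a granule GTPase named after its value was seen), beside 18.5% of all genes called. The largest differences on SD were those of Ptprn2, a granule membrane phosphatase (−0.84, SE 0.45), and Slc18a2, the vesicular monoamine transporter (0.70, SE 0.27). Ptprn2 was 11.0 in P357 and 76.0 to 88.9 in the other mutants on SD, and its log2 fold change was −0.12 without P357 and P392. Averaged over diets, Slc18a2 was at 0.62 with all mice (adjusted p = 0.0631 from limma) and passed without P392 at 0.74 (adjusted p = 0.00724 from limma).

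Of the hormone and peptide precursors, 16 of 17 were tested, and 4 rose and 0 fell in mutants, both on SD, where 1.84% of all genes passed, and averaged over diets, where 6.54% passed (median log2 fold change 0.18 averaged). They were Penk, the enkephalin precursor, Gal, the galanin precursor, Vip and Nmb, the precursor of neuromedin B. Averaged over diets the log2 fold changes were 1.99 for Penk, 2.50 for Gal, 2.07 for Vip and 0.65 for Nmb. Penk was 295 to 463 in mutants on SD against 47.1 to 72.0 in controls. Gal was 1849 to 3910 against 94.7 to 1294, and Vip 9.15 to 37.8 against 2.57 to 4.65. On HFD none of the 4 passed with all mice. Penk was 103.0 to 218 in mutants and 38.0 to 54.1 in 3 controls, with 130 in P392 (log2 fold change 1.47, adjusted p = 0.205 from limma). Gal was 1819 to 2579 in mutants and 247 to 652 in 3 controls, with 2548 in P392 (1.83, adjusted p = 0.385 from limma). Vip was 6.60 to 17.0 in mutants and 2.21 to 3.64 in 3 controls, with 5.004 in P392 (1.53, adjusted p = 0.211 from limma). Without P392 these 3 passed on HFD, at 1.86 for Penk, 2.54 for Gal and 1.71 for Vip, with adjusted p up to 0.0297 from limma. Penk, Gal and Vip passed averaged over diets with each mouse left out, with adjusted p up to 0.0259. Nmb (adjusted p = 0.0367 from limma) did not pass without any one of P358, P383, P381, P382, P384, P385, P390, P339, P341 or P388, with adjusted p up to 0.0855. On SD alone, Penk and Vip passed with each mouse left out. Gal on SD did not pass without any one of P358, P359, P383, P357, P381, P382, P384, P339, P341, P387 or P388, with adjusted p up to 0.116. Nmb on SD did not pass without any one of those except P359, or without P385, with adjusted p up to 0.131. It was also lost with the covariate for animal numbers (adjusted p = 0.0549 from limma) and with only the mice compared (adjusted p = 0.0726 from limma). The other 12 precursors, the pituitary hormone genes Prl, Gh, Pomc, Cga and Tshb among them, did not pass in any comparison with all mice. When P357 and P392 were left out, 5 precursors were higher averaged over diets, Penk, Gal, Vip, Nmb and Adcyap1 (1.79), and 1 was lower, Lhb, the luteinizing hormone beta subunit. Lhb and Adcyap1 are named after their values were seen. Adcyap1 was 0 in every control except P392, where it was 13.4, the highest value of all mice. Mutants had 0.32 to 0.996 on SD and 0.10 to 12.8 on HFD. Without P392 it passed the filter on low values only through the mutants. With all mice it did not pass averaged over diets (adjusted p = 0.315 from limma). Lhb was 283 to 675 in mutants on HFD and 986 to 1343 in 3 controls, with 473 in P392. Its log2 fold change averaged over diets was −0.68 (adjusted p = 0.0733 from limma), and it passed without P357 (−0.77, adjusted p = 0.0423 from limma), without P388 (−0.81, adjusted p = 0.0346 from limma) or without P392 (−0.83, adjusted p = 0.00712 from limma). On HFD it was −1.18 (adjusted p = 0.211 from limma), and −1.49 without P392 (adjusted p = 0.00504 from limma).

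**Figure D4:**
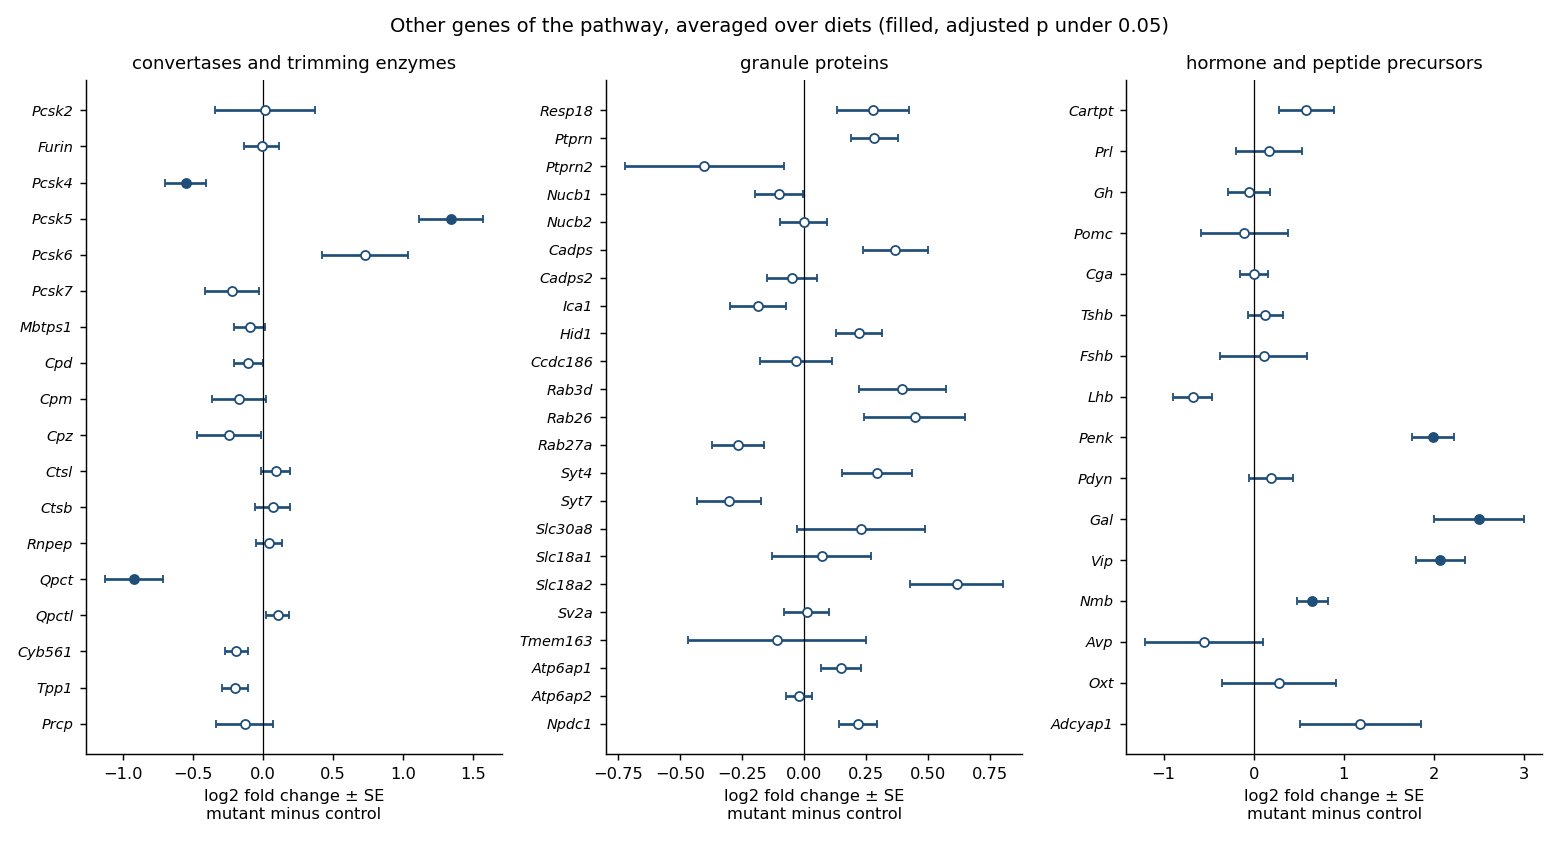
Log2 fold change between mutants and controls averaged over diets (horizontal axes, ± SE from limma, scaled separately) of the tested genes of the 3 other lists, filled where the adjusted p was under 0.05. Filled points are Pcsk5 at 1.3403, Qpct at −0.92 and Pcsk4 at −0.55 on the left, none among the granule proteins, and Penk, Gal, Vip and Nmb on the right.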

How the data were processed

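Pituitary RNA of 16 female mice was sequenced as 1 library a mouse, with groups (genotype and diet) taken from the sample labels and mice named as the labels name them. Per the methods of the study, total RNA was made into libraries with the NEBNext Ultra II kit, run on a NovaSeq and quantified with Kallisto in gene mode against the mm10 transcriptome, and genes were tested with Sleuth. Versions, the annotation release and the use of strand are not given in the sources used here. The deposited values are a normalised signal per gene, which the authors made from these abundances. Their sums and low values look like abundances scaled by a factor per library, which the sources do not state, so no test for counts was run.

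Gene identifiers were paired with symbols for 17351 of 17362 genes. Gene positions came from GENCODE M21 (GRCm38), promoters from RefSeq. Log2(value + 0.5) was tested for 14345 genes with a mean of at least 1, with limma 3.58.1 in R 4.3.3, a mean for each group, all 16 mice in 1 fit, trended eBayes and p-values adjusted by Benjamini-Hochberg in each of 7 comparisons (threshold 0.05). P-values measure the spread between these mice. Single members and ratios were compared with two-sided exact permutation tests. Tables and figures used Python 3.11.15, numpy 2.4.6, pandas 2.3.3 and matplotlib 3.10.9. The script was tested on simulated data of 14345 genes for mutants against controls on SD. Of 200 genes changed by 1 on the log2 scale it recovered 71.5%, with 4.03% of calls false, and of 200 changed by 2 it recovered 95.5%, with 2.55% false. The simulated noise was drawn independently for each gene, without libraries that stood apart, so these shares need not hold for the real data. The size of 1 read was estimated from the spacing of low values, of which 81.3% to 90.9% per library were within 0.1 read of a whole number, after the spacing and the fragment length were chosen to make that share high.

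Members and lists were chosen with earlier results of these data known. Genes named besides the members were Pcsk2, Furin and Esr1, genes of 3 other lists that passed in a comparison or had 1 of the 2 largest log2 fold changes on SD within their list, and the 3 genes nearest to Vgf. Marker genes, single cell-type lists and other genes given beside a member were chosen after their values were seen. The lists for somatotrophs, gonadotrophs, thyrotrophs, lactotrophs, stem and folliculostellate cells and red cells had 0, 0, 1 (Dio2), 1 (Angpt1), 0 and 0 genes called averaged over diets, and the corticotroph, melanotroph and posterior lobe neuron lists 0 each. Alternatives were other filters and pseudocounts, 2 other scalings, untrended eBayes, fits of the compared mice alone, a covariate for the series of animal numbers, leaving out P357 and P392 together or each mouse alone, and a threshold of 0.01. The members' proteins were not analysed here.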

Additional observations from a re-analysis of the deposited data

Results flagged for a closer look

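In groups of 4 mice, the value farthest from the others was judged by Dixon's criterion for its gap to the nearest of the others as a share of the range, over the 10 members, Pcsk2 and 4 ratios in 4 groups each. Of these 60 sets, 6 held a mouse far from the other 3, where chance alone gives about 1 in 20, or 3. Vgf was 164.7 in P392, a control on HFD, against 9.48 to 13.7 in the other 3. Scg2 was 271 in P357, a mutant on SD, against 687 to 756. The ratio of Scg5 to Pcsk2 was 120 in P357 against 18.2 to 23.7, and the ratio of Pcsk2 to Pcsk1 was 0.35 in P357 against 1.31 to 1.43. Pcsk1n was 627 in P358, a control on SD, against 498 to 519. The ratio of Pcsk1n to Pcsk1 was 15.9 in P356, a control on SD, against 12.9 to 13.3. P392 and P357 also had the lowest sums of the corticotroph list, almost all Pomc, and of Avp and Oxt. The part of these sums in the flagged values was not tested.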

How the results depend on the processing

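The limits are the number of mice and 2 libraries that stood apart. With 4 mice a group, an exact test cannot go below p = 0.0286, and P392 widened the shared error of Vgf in every comparison. No paired analysis was possible because the labels give no replicate numbers shared between groups. The test for counts was not run because whole reads were not recovered.

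Of the members, 0 were called on SD with all mice, 1 with only the mice compared (Vgf), 1 with a covariate for the series of animal numbers (Scg2) and 1 without both P357 and P392 (Vgf), and 0 to 1 with single mice left out. On HFD it was 0 with all mice, 1 without both (Vgf) and 0 to 1 with single mice left out. Averaged over diets it was 1, against 4 without both, 0 at a threshold of 0.01 and 1 to 2 with single mice left out. No member was called by diet or for the interaction under any alternative run.

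Over all genes, 264 were called on SD, against 151 with a mean of at least 5, 953 without both and 20 at a threshold of 0.01, and 33 to 826 with single mice left out (33 without P382, 826 without P356). On HFD 0 became 1 with a mean of at least 0.1, 1 with no filter, 1 without eBayes trend and 1050 without both, and 0 to 649 with single mice left out (649 without P392). Averaged over diets 938 became 610 with a mean of at least 5, 2654 without both and 186 at a threshold of 0.01, and 441 to 1924 with single mice left out (441 without P390, 1924 without P392). For HFD against SD, 0 in mutants became 2 with only the mice compared (0 to 1 with single mice left out), 0 in controls became 1 without both (0 to 6), and 1 averaged over genotypes became 0 with median scaling, 0 without trend, 2 with the covariate and 0 at 0.01 (0 to 6). The interaction gave 0, or 0 to 1 with single mice left out. The cause of these changes was not tested.

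Signs changed mainly for values near 0. Without both libraries the averaged log2 fold changes of Pam, Chgb and Scg3 became 0.0094, 0.087 and 0.0072, Vgf between diets in controls became −0.71 and Pcsk2 on SD 0.020. Chga on SD was −0.053 after quantile normalization, and Scg2 on HFD was 0.036 with the covariate. With single mice left out, the ranges were −0.0069 to 0.14 for Pam on HFD, −0.021 to 0.20 for Chga on SD, −0.21 to 0.043 for Chgb averaged, −0.0095 to 0.071 for Scg3 on HFD and −0.027 to 0.013 averaged, −0.71 to 0.64 for Vgf between diets in controls, −0.20 to 1.15 for the Vgf interaction and −0.86 to 0.020 for Pcsk2 on SD. Without both libraries, the log2 ratio differences became 0.050 for Pcsk1n to Pcsk1 by diet in controls, −0.21 for Scg5 to Pcsk2 by genotype on SD, −0.14 for Pcsk2 to Pcsk1 by genotype on HFD and −0.071 for Chga to Chgb by genotype on HFD. The same 4 differences ranged from −0.31 to 0.050, −0.21 to 0.68, −0.14 to 0.68 and −0.071 to 0.54 with single mice left out. By diet in controls, Pcsk2 to Pcsk1 ranged from −0.35 to 0.47, Scg5 to Pcsk2 from −0.46 to 0.26 and Chga to Chgb from −0.12 to 0.49. No ratio passed under any alternative run.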
